A study of Mus musculus with 6 samples.

Results

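The 10 genes described are those of corticotropin-releasing hormone (CRH), its binding protein and receptors, and peptides, peptide receptors and a kinase known from the central amygdala. They were taken by gene symbol: Crh, Crhbp, Crhr1, Crhr2, Prkcd, Nts, Tac2, Grp, Npy1r and Npy2r, out of 18194 named genes on the array. All 10 were found, on 14 probe sets, the groups of oligonucleotides that each report 1 transcript level. A single probe set of each gene passed the filter on low values (a mean log2 level of at least 4 over all mice), so 10 probe sets were tested and 4 were not. RNA was taken from amygdalae of males of the inbred strain 129S1/SvImJ, also called S1 and known for impaired fear extinction, at an age of 8 to 10 weeks. Every mouse went through fear extinction training 2 h before tissue was taken. The 3 mice on the diet labelled ZnR (replicates 3, 7 and 10, here zinc diet) were set against 3 mice on the control diet (replicates 1, 9 and 11). The labels give the zinc content of neither diet, so whether the zinc diet held more or less zinc is not stated here. Each mouse gave 1 Affymetrix array, and the comparison asks how the diet bears on amygdala transcripts after extinction.

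The central amygdala is the main output nucleus of the amygdala and consists mostly of GABAergic neurons, which drive freezing and other fear responses. CRH is a stress peptide made by some of these neurons. It acts on 2 G protein-coupled receptors, CRHR1 and CRHR2, and is sequestered by the secreted CRH-binding protein. Other central amygdala neurons are told apart by protein kinase C delta, neurotensin or tachykinin 2. Gastrin-releasing peptide, in contrast, is known in the mouse amygdala from excitatory neurons of the lateral nucleus. In whole dissected tissue, fewer cells of a type and less RNA per cell cannot be told apart.

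The promoters of Tac2, Npy2r, Crhbp and Nts are shown because these genes were in the gene pairs of highest correlation across mice, described below. RefSeq promoter windows (GRCm38.p6, 250 bases before to 50 after the annotated start, 5′ to 3′ on the gene's strand) were matched for 8 of the 10 genes, and Crh and Grp were not among them. Capitals mark matches, on either strand, to a TATA box (TATAAA), an AP-1 site (TGANTCA), the full cyclic AMP response element (TGACGTCA) or the core of the metal response element (TGCACNC or TGCGCNC). The windows lie at chr10:127724228-127724527 (plus strand) for Tac2, chr3:82548036-82548335 (minus strand) for Npy2r, chr13:95444782-95445081 (minus strand) for Crhbp and chr10:102490369-102490668 (minus strand) for Nts.
Tac2: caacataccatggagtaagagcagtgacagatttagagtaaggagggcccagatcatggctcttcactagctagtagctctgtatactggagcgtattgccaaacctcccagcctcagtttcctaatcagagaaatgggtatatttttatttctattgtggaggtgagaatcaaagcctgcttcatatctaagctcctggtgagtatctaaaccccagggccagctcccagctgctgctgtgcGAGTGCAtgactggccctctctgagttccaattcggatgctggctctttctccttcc
Npy2r: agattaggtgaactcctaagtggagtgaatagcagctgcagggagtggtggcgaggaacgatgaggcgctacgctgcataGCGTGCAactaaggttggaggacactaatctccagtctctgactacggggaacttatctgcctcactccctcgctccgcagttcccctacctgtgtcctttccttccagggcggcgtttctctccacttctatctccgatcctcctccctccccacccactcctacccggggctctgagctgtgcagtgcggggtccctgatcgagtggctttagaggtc
Crhbp: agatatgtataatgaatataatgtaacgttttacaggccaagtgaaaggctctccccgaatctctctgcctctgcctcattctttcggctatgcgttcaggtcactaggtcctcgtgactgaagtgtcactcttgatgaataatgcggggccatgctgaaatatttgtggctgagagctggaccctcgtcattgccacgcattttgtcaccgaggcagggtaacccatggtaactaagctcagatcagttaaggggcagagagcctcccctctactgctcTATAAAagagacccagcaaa
Nts: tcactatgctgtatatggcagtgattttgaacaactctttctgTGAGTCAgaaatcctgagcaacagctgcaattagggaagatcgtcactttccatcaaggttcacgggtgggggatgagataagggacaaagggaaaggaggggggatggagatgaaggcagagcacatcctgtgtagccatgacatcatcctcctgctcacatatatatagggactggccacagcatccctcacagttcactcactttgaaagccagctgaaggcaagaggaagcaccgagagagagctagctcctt
The Tac2 and Npy2r windows each held 1 core of the metal response element, as did 25.7% of all 32851 promoter windows. The Nts window held 1 AP-1 site (7.81% of all windows) and the Crhbp window 1 TATAAA, which lay after the annotated start (13.6% of all windows). The full cyclic AMP response element, found in 1.79% of all windows, was in none of the 4. Among the other windows, those of Crhr1 and of 1 of the 2 Prkcd starts held the metal response element core, that of Npy1r an AP-1 site, and those of Crhr2 and the other Prkcd start TATAAA. A match of letters describes the window and does not show that a factor binds there.

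Arrays were alike as a whole, with median log2 levels between 4.04 and 4.09 over all 45101 probe sets. Pairwise correlations lay between 0.991 and 0.996 over the 22877 probe sets tested. A mouse of each diet stood apart in markers of other tissue. In zinc diet replicate 7 Pmch, the melanin-concentrating hormone gene of the lateral hypothalamus, had a log2 level of 9.0, against 2.84 to 4.01 in the other mice. With it, the mean of the 7 hypothalamus and thalamus markers tested was 6.07, against 4.95 to 5.34. Of the other markers, Trh was at 4.53 against 3.76 to 4.35. On 1 probe set per gene, Lhx9, Oxt, Rora, Tcf7l2 and Prox1 lay within the range of the other mice. A second tested Lhx9 probe set was lower in all zinc diet mice (-0.42 ± 0.12 SE, limma adjusted p = 0.67). The mean of 7 myelin markers in zinc diet replicate 7 was 10.2, against 9.01 to 9.63 in the others. In control replicate 9 the 4 choroid plexus markers tested were all at their highest, with a mean log2 level of 9.28 against 5.62 to 6.56 in the other mice, and the 7 myelin markers were all at their lowest. For members whose change differed clearly without control replicate 9, both values are given. Values without zinc diet replicate 7 are given for Crhbp and Tac2, and for Crhr2 in the closing section. Genes outside the 10 are given over all 6 mice only. Striatal spiny neuron markers differed by diet: the mean log2 level of the 8 tested was 8.32 to 8.83 in zinc diet mice and 6.62 to 7.05 in control mice (exact permutation p = 0.1, two-sided, the smallest that 3 mice against 3 can give). For basolateral and cortical excitatory markers the list means overlapped, at 9.25 to 9.52 in zinc diet mice and 9.25 to 9.29 in control mice, but members went both ways. Of the 8 tested, 5 were at an unadjusted limma p under 0.05 (3 higher and 2 lower in zinc diet mice), against 6.38% of all probe sets, and 5 did not overlap between diets (2 above and 3 below), against 12% of all, with 0 past the adjusted threshold. All 8 striatal markers were at an unadjusted limma p under 0.05, against 6.38% of all probe sets, and 0 passed the adjusted threshold. The marker lists were chosen with earlier results of these data known, so their counts and the permutation p only describe these mice. The part of these tissue differences in the results below was not tested.

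No gene of the group passed the test between diets. In size, 5 of the 10 changes (Grp, Tac2, Crh, Crhbp and Npy1r) lay beyond 0.26 on the log2 scale, the 90th percentile over all tested probe sets, and their 95% intervals were wide. By mean, Crh, Tac2, Npy1r, Nts and Npy2r were higher in zinc diet mice, Crhr1, Crhr2 and Prkcd differed by less than 0.1 on the log2 scale, and Grp and Crhbp were lower. In limma's moderated test 0 of 10 passed an adjusted p of 0.05, where 0% of all 22877 probe sets passed. At an unadjusted p under 0.05 there was 1 of 10, Crh, against 6.38% of all probe sets. In 0 of 10 did the 3 zinc diet mice lie all above or all below the 3 control mice, against 12% of all (6.66% with the zinc diet mice above and 5.33% below). The zinc diet mean was the higher one in 8 of 10, against 53.0% of all probe sets, and the median log2 change was 0.13, against 0.0091 over all.

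Crh, the peptide at the head of the stress axis, had log2 levels of 9.62, 9.60 and 9.49 in zinc diet mice 3, 7 and 10, against 9.50, 8.79 and 9.12 in control mice 1, 9 and 11. The zinc diet mice lay close together, and control mouse 1 was level with the lowest of them, so that the diets met without separating. The log2 change was 0.43 ± 0.17 (SE), or 1.35-fold with a 95% interval of 1.01 to 1.80 (limma adjusted p = 0.78; n = 3 mice per diet here and in the other changes). Without control replicate 9 it was 0.26, and it ranged from 0.26 to 0.61 with each mouse left out in turn. Of these changes, only the one without control replicate 1 stayed at an unadjusted p under 0.05. Centring each array on its median, between 4.04 and 4.09, was enough to part the diets for Crh.

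Crhbp encodes the secreted protein that binds CRH and limits its access to receptors. Its log2 levels were 8.65, 8.34 and 9.01 in zinc diet mice 3, 7 and 10, and 8.85, 9.26 and 9.05 in control mice 1, 9 and 11. The diets overlapped through zinc diet mouse 10, which exceeded control mouse 1. The log2 change was -0.38 ± 0.19 (SE; limma adjusted p = 0.81), and -0.28 without control replicate 9. Zinc diet mice moved it more: it was -0.22 without zinc diet replicate 7, the lowest mouse, and -0.56 without zinc diet replicate 10, the highest of that diet. The peptide and its binding protein thus had changes of opposite sign, neither past the test.

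The CRH receptors were measured near the low end of the scale. Crhr1, the receptor with the higher affinity for CRH, had log2 levels of 5.10, 5.27 and 5.48 in zinc diet mice and 5.12, 5.21 and 5.24 in control mice. Its change was 0.09 ± 0.11 (SE), with a 95% interval of -0.17 to 0.35 (limma adjusted p = 0.92). Crhr2, the main receptor for urocortins 2 and 3, had 4.51, 4.89 and 4.82 in zinc diet mice against 4.64, 4.66 and 4.73 in control mice, a change of 0.06 ± 0.11 (SE; 95% interval -0.21 to 0.33, limma adjusted p = 0.96). For both receptors the control mice lay within the range of the zinc diet mice. A second probe set of Crhr1, with a mean below the filter, ran the other way: 3.66, 3.62 and 3.82 in zinc diet mice and 3.88, 4.08 and 3.94 in control mice. Fitted without the filter, its change was -0.26 ± 0.093 (SE, limma adjusted p = 0.89). The second probe set of Crhr2, at 2.00 to 2.47 over all mice, changed by -0.12 ± 0.13 (SE). With no detection call at hand, background and transcript cannot be told apart at such levels.

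Prkcd encodes protein kinase C delta, which marks a class of GABAergic neurons in the lateral part of the central amygdala. Its log2 levels were 5.93, 6.04 and 6.17 in zinc diet mice against 6.30, 5.55 and 6.10 in control mice. Control mice held both the highest and the lowest value. The change was 0.06 ± 0.19 (SE), with a 95% interval of -0.40 to 0.51 (limma adjusted p = 0.98). It was -0.16 without control replicate 9 and 0.22 without control replicate 1. The second Prkcd probe set lay below the filter, at 3.62 to 3.94 over all mice, with a change of -0.12 ± 0.091 (SE).

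Among the peptides, Tac2 encodes the precursor of neurokinin B in the mouse. It had log2 levels of 9.38, 9.47 and 9.25 in zinc diet mice 3, 7 and 10, and 9.23, 8.29 and 9.28 in control mice 1, 9 and 11. Control mouse 9 was about 1 log2 unit below the rest, and the other 2 control mice were level with zinc diet mouse 10. The change of 0.44 ± 0.26 (SE, limma adjusted p = 0.84) was 0.11 without control replicate 9, and it was 0.39 when zinc diet replicate 7 was left out. Nts, the precursor of neurotensin and neuromedin N, had 10.18, 10.11 and 10.22 in zinc diet mice against 10.23, 9.81 and 9.91 in control mice. Its change was 0.19 ± 0.12 (SE; limma adjusted p = 0.85). It was 0.10 without control replicate 9 and 0.31 without control replicate 1, the mouse above all zinc diet mice.

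Grp, the precursor of gastrin-releasing peptide, gave the widest difference of the 10 genes. Its log2 levels were 8.24, 8.32 and 8.86 in zinc diet mice 3, 7 and 10, and 8.58, 9.45 and 9.15 in control mice 1, 9 and 11. The diets overlapped, with zinc diet mouse 10 above control mouse 1. The log2 change was -0.59 ± 0.26 (SE), or 1.5-fold lower in zinc diet mice (limma adjusted p = 0.79). It was -0.39 without control replicate 9 and -0.83 without control replicate 1. Of the markers of basolateral and cortical excitatory neurons, Rspo2 and Neurod6 were higher in zinc diet mice (0.77 ± 0.17 and 0.67 ± 0.17 SE), while Lmo3 and Neurod1 were lower (-0.43 ± 0.11 and -0.36 ± 0.10 SE). None of these 4 passed (limma adjusted p from 0.49 to 0.66), and their part in the Grp difference was not tested. A second tested Neurod1 probe set differed by -0.25 ± 0.11 (SE), with the diets overlapping.

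Npy1r and Npy2r encode receptors for neuropeptide Y, an inhibitory peptide that opposes CRH in anxiety-related behaviour. Npy1r, the postsynaptic type, had log2 levels of 6.94, 6.65 and 6.55 in zinc diet mice 3, 7 and 10, and 6.17, 6.59 and 6.53 in control mice 1, 9 and 11. Only control mouse 9 exceeded a zinc diet mouse, and the change was 0.28 ± 0.15 (SE, limma adjusted p = 0.82), or 0.36 without control replicate 9. It was 0.17 without zinc diet replicate 3, the highest mouse, and 0.15 without control replicate 1, the lowest. Npy2r, mostly a presynaptic type, had 8.11, 8.16 and 7.92 in zinc diet mice against 7.98, 7.57 and 8.13 in control mice. Its change of 0.17 ± 0.15 (SE, limma adjusted p = 0.90) came to 0.0074 without control replicate 9 and ranged up to 0.29 without control replicate 11. A second Npy1r probe set, at 2.05 to 2.30 over all mice, lay far below the filter. Its zinc diet mice were all below the control mice, with a change of -0.12 ± 0.080 (SE) in the fit without the filter.

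**Figure D1:**
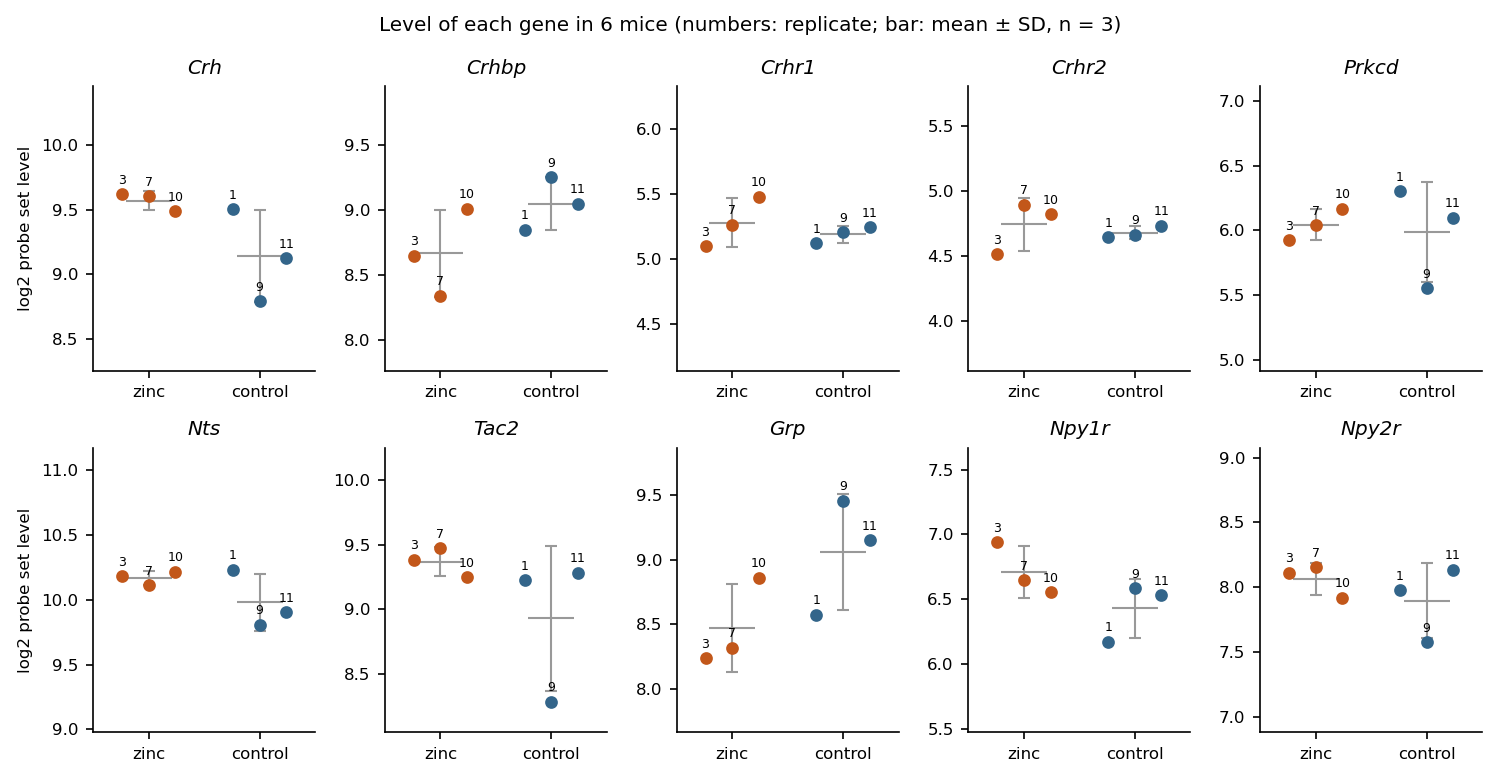
Log2 probe set level (vertical axis, the same span in each panel) of the 10 genes in 3 zinc diet mice (orange) and 3 control mice (blue), numbered by replicate, with the mean and SD of each diet. Control mouse 9 was the lowest of all 6 for Crh, Prkcd, Nts, Tac2 and Npy2r and the highest for Crhbp and Grp.

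**Figure D2:**
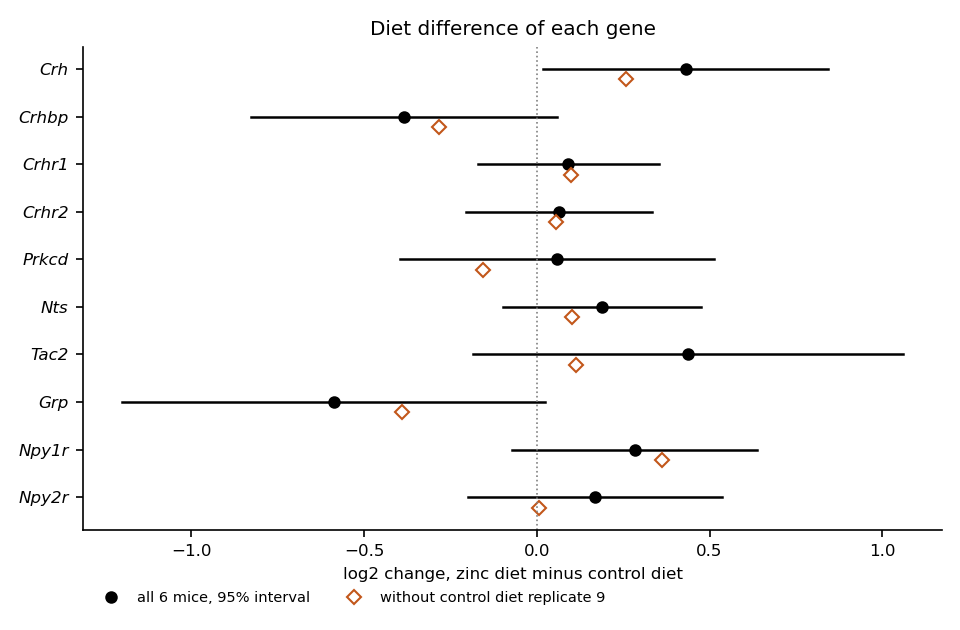
Log2 change, zinc diet minus control diet (horizontal axis), of each gene with its 95% limma interval in black and the change without control replicate 9 as open orange diamonds. The interval of Crh began at 0.02 and those of the other 9 genes included 0, and without control replicate 9 the sign of Prkcd turned.

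Across mice the genes did not vary as 1 group: Crh, Nts, Tac2, Npy2r and Prkcd correlated positively with each other and negatively with Grp and Crhbp over all 6 mice, a grouping seen in these data and not tested. It rested on control mouse 9: without that mouse 6 of the 10 pairs among the 5 genes turned negative, among them Prkcd and Tac2 (r = -0.77) and Nts and Npy2r (r = -0.64), and Prkcd turned positive with Grp (r = 0.43) and Crhbp (r = 0.48). With any other mouse left out, zinc diet replicate 7 included, no sign in the grouping changed. Control mouse 9 was lowest for 5 of the 10 genes and highest for 2 others. Over the 45 gene pairs the median Pearson r across 6 mice was 0.079, against 0.029 over all 62949810 pairs of tested genes. Single pairs ran from -0.94 to 0.95, with 26 positive and 19 negative. An r beyond 0.8 in size was found in 6 of 45 pairs (13.3%), against 7.16% of all gene pairs. With each diet's mean removed there were 8 of 45 (17.8%), against 12.5%, and the median r was -0.10. Without control replicate 9, an alternative chosen after seeing the data, there were 5 of 45 (11.1%), against 11.7%, and the median r over the 45 pairs was -0.11. Those 5 included Prkcd and Npy1r (r = -0.97, against -0.50 over 6 mice) and Crhbp and Tac2 (r = -0.90, against -0.74). Leaving out any other mouse raised the count of pairs beyond 0.8. It was 8 of 45 without zinc diet replicate 3 or control replicate 1, 9 without zinc diet replicate 7 or 10, and 12 without control replicate 11. For these counts the share over all gene pairs was not computed. Of the 45 exact permutation tests, 7 gave an unadjusted p under 0.05 and 0 passed after Benjamini-Hochberg adjustment over the 45 pairs.

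Crh and Grp were the most sharply opposed pair. Their order over the 6 mice was exactly reversed, so that the mouse with the most Crh had the least Grp and so on through all 6 (Pearson r = -0.94, exact permutation p = 0.00139, the smallest that 720 rearrangements can give, adjusted p = 0.0625; Spearman rho = -1, exact permutation p = 0.00278, adjusted p = 0.125). The r was -0.94 without the 2 mice farthest from the median of Crh (control mice 9 and 11), -0.91 without control replicate 9 alone and -0.89 within diets. Crhbp and Grp varied in the same direction (r = 0.91, exact permutation p = 0.0111, adjusted p = 0.167; rho = 0.94, exact permutation p = 0.0167, adjusted p = 0.188). That r was 0.97 without the 2 mice farthest from the median of Crhbp, 0.85 without control replicate 9 and 0.83 within diets. Crh and Crhbp were opposed (r = -0.81, exact permutation p = 0.0431, adjusted p = 0.277; rho = -0.94, exact permutation p = 0.0167, adjusted p = 0.188), with an r of -0.84 without control mice 9 and 11, -0.70 without control replicate 9 and -0.65 within diets.

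Correlations of some other pairs changed more with control mice left out, while that of Crhr1 and Crhr2 hardly changed without control replicate 9. Tac2 and Npy2r had r = 0.95 (exact permutation p = 0.00833, adjusted p = 0.167; rho = 0.89, exact permutation p = 0.0333, adjusted p = 0.3), which was 0.76 without control replicate 9 and 0.68 without the 2 mice farthest from the median of Tac2. Crh and Tac2 had r = 0.87 (exact permutation p = 0.0347, adjusted p = 0.26, and rho = 0.71, exact permutation p = 0.136, adjusted p = 0.613). That r was 0.47 without control replicate 9 alone, 0.91 without both control mice 9 and 11, and 0.82 within diets. Crh and Nts had r = 0.92 (exact permutation p = 0.0292, adjusted p = 0.26; rho = 0.54, exact permutation p = 0.297, adjusted p = 0.836). Without control mice 9 and 11, the 2 farthest from the median of Crh, that r turned to -0.76, so the relation rested on those mice, and it was 0.82 without control replicate 9 alone. Prkcd and Crh gave r = 0.67 over 6 mice (exact permutation p = 0.143, adjusted p = 0.402; rho = 0.086, exact permutation p = 0.919, adjusted p = 0.985) and -0.23 without control replicate 9. The receptors Crhr1 and Crhr2 had r = 0.74 (exact permutation p = 0.0819, adjusted p = 0.329; rho = 0.94, exact permutation p = 0.0167, adjusted p = 0.188), with an r of 0.74 without control replicate 9 and 0.79 without the 2 mice farthest from the median of Crhr1. With Crh, Crhr1 had an r of 0.01 (exact permutation p = 0.978, adjusted p = 0.993; rho = -0.31, exact permutation p = 0.564, adjusted p = 0.985). Crhr2 had an r of 0.09 with Crh (exact permutation p = 0.858, adjusted p = 0.963; rho = -0.20, exact permutation p = 0.714, adjusted p = 0.985).

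**Figure D3:**
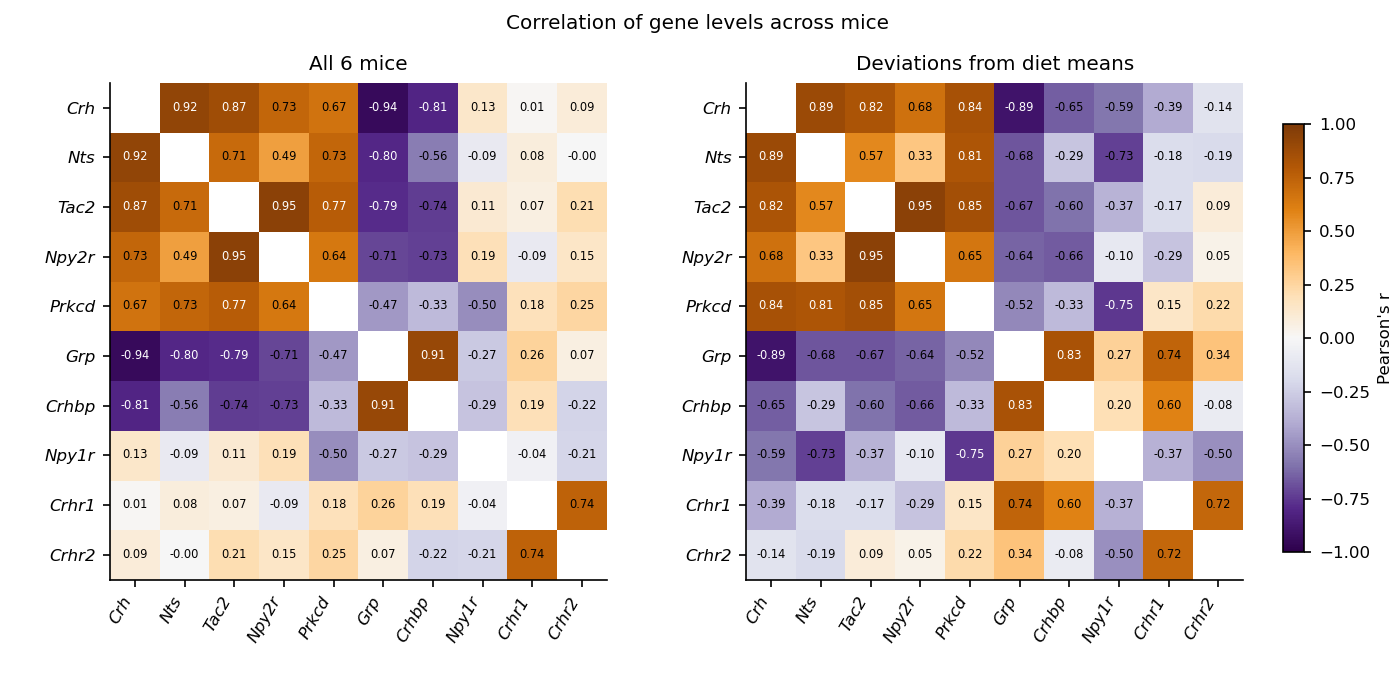
Pearson's r between the levels of each pair of the 10 genes, over 6 mice (left) and over deviations from the diet means (right), in orange where positive and purple where negative. Crh, Nts, Tac2, Npy2r and Prkcd correlated positively with each other and negatively with Grp and Crhbp in both panels, which both include control mouse 9, and 6 of those 10 positive pairs were negative without it. In both panels Npy1r, Crhr1 and Crhr2 had no r beyond 0.8 in size with any of the 10 genes.

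**Figure D4:**
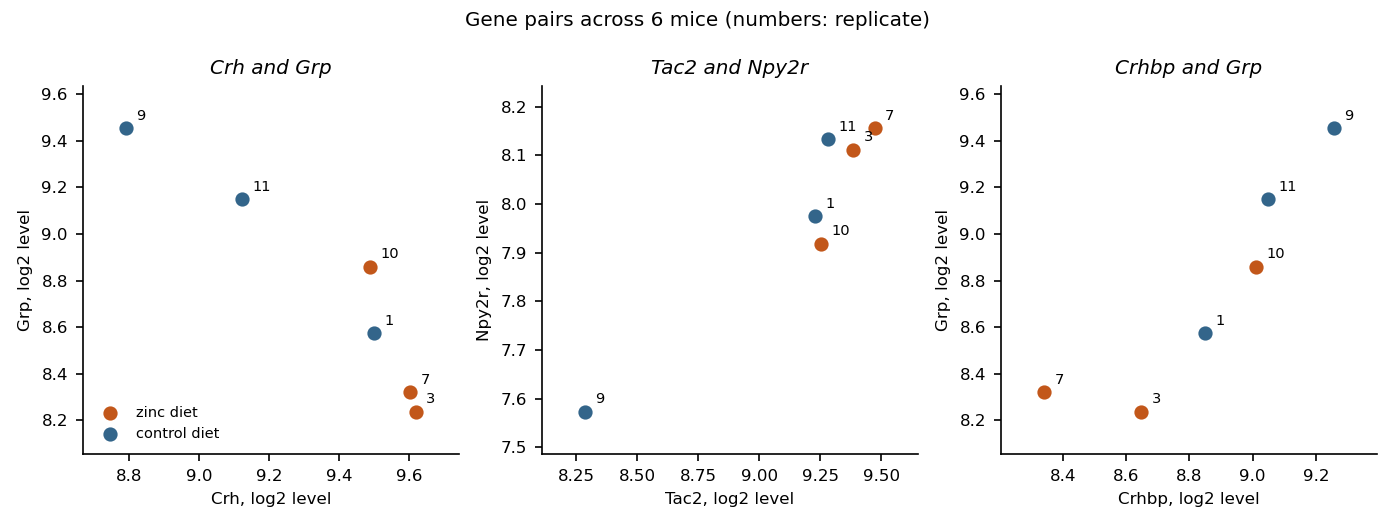
Log2 levels of 3 gene pairs in the 3 zinc diet mice (orange) and 3 control mice (blue), numbered by replicate. Crh and Grp (r = -0.94) and Crhbp and Grp (r = 0.91) spread along a line over all 6 mice, while for Tac2 and Npy2r (r = 0.95) control mouse 9 lay apart from the other 5.

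Genes outside the group whose levels were most like those of Crh over the 6 mice were Arid4b, a chromatin-binding protein gene (r = 0.99), Swt1 (0.99) and Scg5 (0.98), which encodes a chaperone of a prohormone-processing enzyme. Those most like Prkcd were Asxl1, a chromatin regulator gene (0.99), Sugp2 (0.99) and Fbxl19 (0.99). All 6 genes were lowest in control mouse 9. Many genes came close to these values: of 11211 other genes, 160 had an r above 0.9 with Crh and 196 with Prkcd. These genes were picked as the highest, so no test was made.

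Ligands and receptors that pair with the members gave few differences. Of 15 such genes listed, 9 were tested, 4 of them higher and 5 lower in zinc diet mice, with a median log2 change of -0.04. At an unadjusted p under 0.05 there was 1 of 9, against 6.38% of all probe sets, and 0 passed the adjusted threshold. In 1 of 9 the diets did not overlap, against 12% of all. That 1 gene was Npy5r, a neuropeptide Y receptor gene beside Npy1r on chromosome 8, at 8.75, 8.97 and 9.03 in zinc diet mice against 8.39, 8.48 and 8.45 in control mice. No control mouse reached the lowest zinc diet mouse, and the difference was 0.48 ± 0.094 (SE, limma adjusted p = 0.42). Its second tested probe set differed by 0.02 ± 0.17 (SE), with the diets overlapping. Their ligand gene Npy, named outside the rule for named genes, differed by 0.04 ± 0.11 (SE). The neurotensin receptor gene Ntsr2 (-0.21 ± 0.12 SE), the neuromedin B gene Nmb (-0.14 ± 0.094) and the neurokinin B receptor gene Tacr3 (0.32 ± 0.25, on a probe set design that can match related transcripts) did not pass. A second tested Tacr3 probe set differed by 0.11 ± 0.31 (SE). Urocortins 1, 2 and 3 (Ucn, Ucn2, Ucn3), the other ligands of the CRH receptors, lay below the filter and were not tested, as did Tacr1, Tacr2 and Grpr.

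Among the other protein kinase C genes, 5 of 7 tested were higher, with a median of 0.05. Prkch differed by 0.51 ± 0.14 (SE, limma adjusted p = 0.65), with a zinc diet mean of 4.74 and a control mean of 4.23, close to the filter, and Prkcb by 0.19 ± 0.080 (SE, limma adjusted p = 0.78). In both, the diets did not overlap, as in 12% of all probe sets. These were the 2 of 7 at an unadjusted p under 0.05, against 6.38% of all. Prkca (-0.11 ± 0.077 SE) and Prkci (0.06 ± 0.073 SE) did not reach it. Second tested probe sets differed by 0.26 ± 0.081 for Prkcb, without overlap, and by 0.0089 ± 0.14 for Prkca, with overlap (SE).

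In the list of CRH axis and glucocorticoid signalling genes, 4 of 8 tested were higher and 4 lower, with a median of 0.05. None was at an unadjusted p under 0.05, against 6.38% of all probe sets, and 1 did not overlap between diets, against 12% of all. Nr3c1, the glucocorticoid receptor gene, had the smallest p, with log2 levels of 10.38, 10.50 and 10.35 in zinc diet mice against 10.30, 10.21 and 10.15 in control mice. All zinc diet mice were higher, by 0.18 ± 0.081 (SE, limma adjusted p = 0.79), while the differences on 2 further Nr3c1 probe sets were 0.07 ± 0.11 and 0.12 ± 0.14 (SE) with overlap. Hsd11b1 (-0.14 ± 0.13), Sgk1 (0.19 ± 0.17) and Nr3c2 (-0.07 ± 0.085) followed. Avp, the vasopressin gene, named here after its values were seen, had 9.84, 9.14 and 4.73 in zinc diet mice and 10.96, 4.38 and 5.63 in control mice. It was high in 3 of the 6 mice across both diets, namely zinc diet mice 3 and 7 and control mouse 1.

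Other genes known from central amygdala neurons had a wider range of changes. Of 13 tested, 8 were higher and 5 lower, with a median log2 change of 0.26, against 0.13 for the 10 genes above. At an unadjusted p under 0.05 there were 7, of which 5 were higher and 2 lower, against 3.63% and 2.75% of all probe sets, and 0 passed the adjusted threshold. Isl1, a transcription factor gene of striatal and central amygdala lineages, had 6.45, 6.76 and 6.07 in zinc diet mice against 4.88, 5.11 and 5.16 in control mice, a change of 1.37 ± 0.18 (SE, limma adjusted p = 0.22). Cartpt, which encodes the CART peptides, had 8.71, 8.72 and 8.41 in zinc diet mice against 9.55, 9.36 and 9.62 in control mice, a change of -0.90 ± 0.12 (SE, limma adjusted p = 0.22). Foxp2 (0.86 ± 0.12 SE) and Meis2 (0.47 ± 0.099 SE) had all zinc diet mice higher on each of their tested probe sets. One Foxp2 probe set, with a change of 1.04 ± 0.083 (SE), had a limma adjusted p of 0.076, the smallest value given to any probe set. The striatal marker Rgs9 shared that adjusted value and had the smaller unadjusted p. Isl1, Foxp2 and Meis2 are expressed in striatum as well, and the striatal markers differed by diet as given above. The list and the members were both chosen with results of these data known, and the difference between them was not tested.

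**Figure D5:**
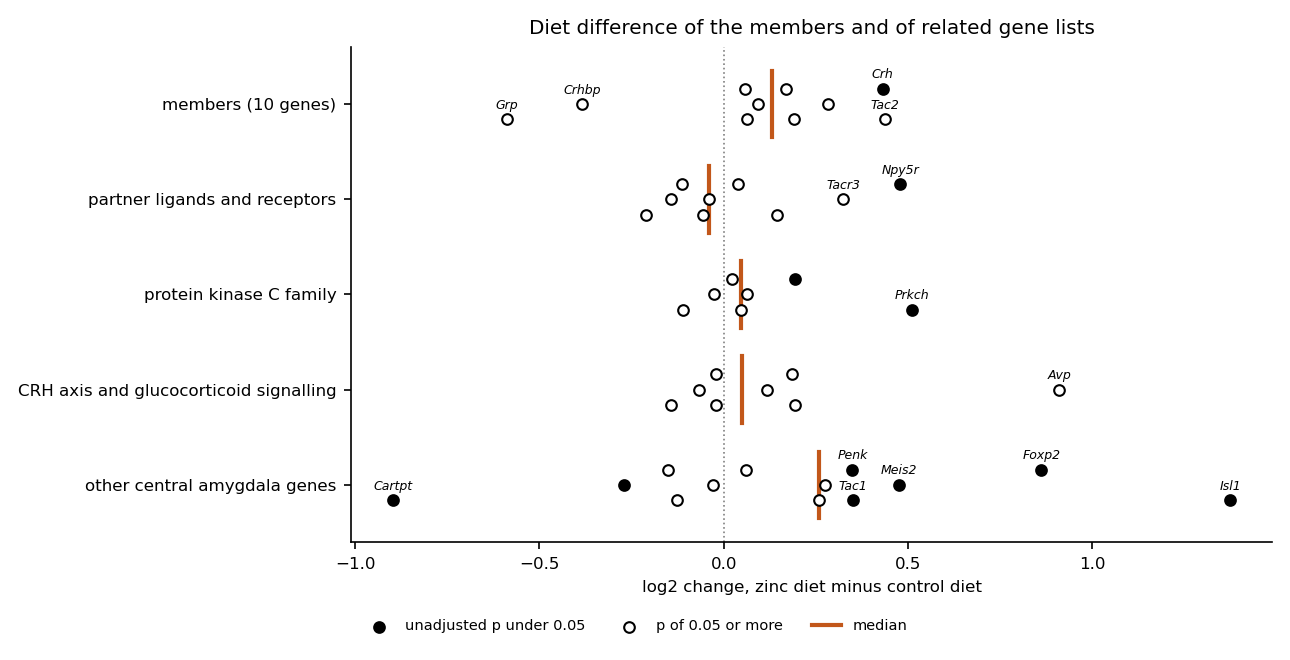
Log2 change, zinc diet minus control diet (horizontal axis), of each tested gene of the 10 members and of 4 related lists, 1 probe set per gene, filled where the unadjusted limma p was under 0.05 and with each list's median in orange. The members ran from -0.59 for Grp to 0.44 for Tac2, and the other central amygdala genes from -0.90 for Cartpt to 1.37 for Isl1.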

How the data were processed

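Per the labels' protocols, total RNA of each amygdala was purified with DNase treatment, and 500 ng was labelled by a 3′ in vitro transcription kit for Affymetrix Mouse430_2 arrays. The authors deposited 1 table of probe set levels, read here as log2 from its values; R 2.15.1 and GCRMA 2.28.0 appear in the submitters' processing notes, and options, centring and filters are not given in the sources used here. Scanner files were not used here, so there was no detection call. The table held 45101 probe sets, named through the platform annotation. With control probe sets counted in, 932 had several symbols and 9211 none, and without them 34945 had 1 symbol. The 64 control probe sets were left out. Of the rest, those with a mean of at least 4 over all arrays (22877) were fitted with limma 3.58.1 in R 4.3.3. Diet was the only term, and tests were two-sided, with Benjamini-Hochberg adjustment over all 22877 and a threshold of 0.05. Member names were checked against RefSeq GRCm38.p6. Correlations used 1 probe set per gene, the one with the highest mean over all arrays, and exact permutation in Python 3.11.15 with NumPy 2.4.6. Named genes were all members, up to 4 genes per list with the smallest p, and the 3 genes most like Crh and Prkcd. The members and lists were chosen with earlier results of these data known. Both computations were tested on simulated data. The number of arrays, 3 per diet, limits the precision. The limma p-values set each change against the variation between these mice, moderated over all tested probe sets. Exact permutation p-values come from rearranging the mice.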

Additional observations from a re-analysis of the deposited data

How the results depend on the processing

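The changes of the 10 genes were recomputed 148 times under 9 processing alternatives and with each mouse left out. In 144 the direction and the side of the adjusted threshold were as reported, and 4 changes of near-zero size turned sign. These were Crhr2 without zinc diet replicate 7 (-0.012), Crhr1 (-0.0080) and Prkcd (-0.0033) without zinc diet replicate 10, and Prkcd with control replicate 9 left out (-0.16, the low end of a range up to 0.22 over the mice left out). The lowest adjusted p of any member was 0.36, for Crh with array weights, and Crhr1 and Crhr2 gave no value with a mean of at least 6. Members at an unadjusted p under 0.05 numbered 1 in the reported fit, 2 with eBayes trend and robust settings, with the title number as a covariate or with 1 probe set per gene, 3 with array weights, 3 of 14 with no filter, and 0 to 3 with a mouse left out: 0 without zinc diet replicate 3 or 7 or control replicate 9 or 11, 2 (Grp and Crhbp) without zinc diet replicate 10 and 3 (Nts, Grp and Crh) without control replicate 1. Members whose diets did not overlap numbered 0, and 2 (Crh and Npy1r) after median centring, against 11.2% of all probe sets, 2 of 14 with no filter (probe sets of Npy1r and Crhr1 below it), against 10.8%, and 0 to 5 with a mouse left out: 5 without zinc diet replicate 10, against 19.6%, 4 without control replicate 1, against 28.9%, and 0 to 2 without another mouse, against 17.7% to 23.4%. Over all probe sets the adjusted threshold was passed by 0 in the reported fit, 2 with a mean of at least 6, 3 with trend and robust settings, 1 with the title number and 1 with 1 probe set per gene. At an unadjusted p under 0.05 there were 1460 of 22877 probe sets in the reported fit. This total moved as well, so the member counts above are to be read beside it. It was 2429 of 45037 with no filter and 937 of 11221 with 1 probe set per gene. Out of 22877 it was 2345 with array weights, 1732 with the title number and 1480 with trend and robust settings. With a mouse left out it ran from 853 (without zinc diet replicate 7) to 2241 (without control replicate 1), and was 1114 without zinc diet replicate 10. The median pairwise correlation of 0.079 turned to -0.029 with Spearman's rho, -0.022 when zinc diet replicate 10 was left out and -0.11 when control replicate 9 was (-0.11 to 0.18 over the mice left out), and the within-diet value of -0.10 turned to 0.10 without control replicate 1 (-0.18 to 0.10). Their causes were not tested. Marker list levels had no alternative. No paired analysis was possible because the labels give the diets no shared replicate numbers.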
